A study of Bos taurus with 6 samples.

Results

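The bovine miRNAs numbered 3000 and above are the entries of the deposited extracellular vesicle (EV) table whose name is bta-miR- followed by a number of 3000 or more, with any letter or arm suffix. This name rule gave 206 of the 1028 miRNAs in the table, and it used no measured value. The 206 entries carried 189 different numbers, since 16 numbers had more than 1 entry through letters (a, b, c) or through the 5p and 3p arms of a hairpin.

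A miRNA is cut from a hairpin precursor, and either arm of the hairpin can be loaded into an Argonaute protein, where the seed near its 5′ end pairs with target mRNAs. The miRNA registry numbers miRNAs in the order in which they are named, so high numbers mark late annotations, many of them known from a single species and found by sequencing rather than by function. Cells pass some of their miRNAs to the EVs they secrete, and in the oviduct such EVs can reach gametes and the early embryo.

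The EVs were isolated from medium conditioned by bovine oviductal organoids, self-organizing cultures of the oviduct epithelium that were grown from tracts collected at a slaughterhouse. The condition of interest was heat stress, 24 h at 42 °C after priming at 37 °C, and its thermoneutral counterpart spent all of that time at 37 °C. Each temperature had 3 small RNA libraries, made from pools of 2 animals. Per the study's methods the same oviducts contributed to both temperatures. The libraries carry the letters A, B and C at each temperature, but no source used here states that a letter marks the same oviducts. The groups were therefore compared unpaired, with the letter as a block only as an alternative. Values are counts per 1000000 reads (CPM) adjusted by the trimmed mean of M-values (TMM), so a library need not sum to 1000000. The miRNA reads could be recovered because every value above 0 was a whole multiple of the smallest one in its library, within 0.01.

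Replicates A, B and C yielded 103809, 213877 and 72580 recovered reads at 42 °C, compared to 31640, 150214 and 140055 at 37 °C. The worth of 1 read did not follow this depth alone, and the CPM also carry the TMM adjustment. It ran from 5.53 CPM (replicate B at 42 °C) to 28.7 CPM (replicate C at 42 °C). In replicate A at 37 °C, the library with the fewest reads, it was 17.0 CPM. A member with no read could therefore stand at up to 16.6 to 86.2 CPM, the worth of 3 reads, and these limits cover counting error only. All 6 epithelial marker miRNAs (the miR-200 family and miR-205) had reads, with a summed level of 12670 to 26238 CPM at 42 °C and 12347 to 19774 CPM at 37 °C, and so had the 3 multiciliated cell markers of the miR-34 and miR-449 families (88.5 to 201 CPM at 42 °C and 102 to 288 CPM at 37 °C). Markers of other tissues were also present, since the 3 red blood cell miRNAs summed to 15412, 174301 and 20103 CPM at 42 °C and 13912, 26059 and 47558 CPM at 37 °C. The 4 leukocyte miRNAs summed to 2966 to 10224 CPM at 42 °C and 164 to 488 CPM at 37 °C, and the liver miRNA miR-122 stood at 8926 to 96614 CPM and 15632 to 25394 CPM at the same temperatures. Replicate B at 42 °C thus stood apart in red blood cell and liver miRNAs, and the part of any of these markers in the results below was not tested.

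Most of the late-annotated miRNAs were not seen in the EVs. At least 1 read in any of the 6 libraries was found for 36 of the 206 members (17.5%), and the other 170 were at 0 throughout. In the neighboring number blocks, reads were found for 15 of 148 entries of the bta-miR-2284 and bta-miR-2285 families, which are expanded in ruminants (10.1%), and for 27 of 265 entries numbered between these families and 3000 (10.2%). Among the entries numbered below these families, let-7 included, 263 of 409 (64.3%) had a read. The members were thus detected far less often than the early-numbered miRNAs, and these shares are descriptions of the table with no test.

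**Figure D1:**
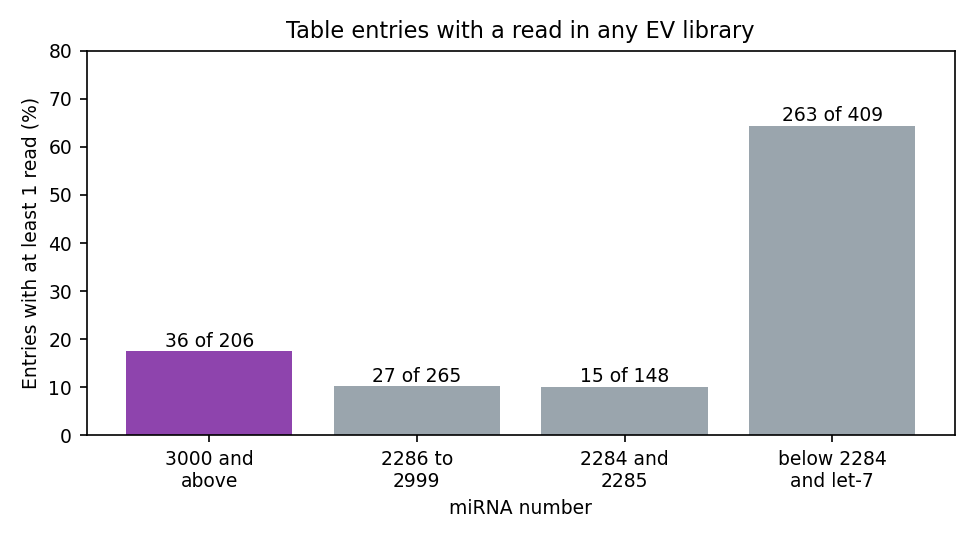
Share of table entries with at least 1 read in any of the 6 EV libraries (percent, vertical axis), for 4 blocks of miRNA numbers (horizontal axis), with the counts above the bars. The block of 3000 and above stands at 17.5%, between the 10.1% to 10.2% of the neighboring blocks and the 64.3% of the lower-numbered entries.

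Detection was thin within the members as well. The 36 detected members held 2656 reads in total, with a median of 8 reads each and a range of 1 to 1194. Only 8 of them had reads in all 6 libraries, while 15 had reads in a single library. Reads were found at both temperatures for 21 members, at 42 °C only for 9 and at 37 °C only for 6. For the 341 entries of the whole table with a read, these counts were 239, 49 and 53. Between 13 and 23 members were seen per library at 42 °C and between 14 and 20 at 37 °C, so the number detected overlapped between the groups.

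Detected members were found in every range of numbers. Reads were found for 5 of 26 members numbered from 3000 and below 6000, 12 of 47 numbered from 6000 and below 8000, 4 of 36 numbered from 8000 and below 11000 and 15 of 97 numbered 11000 and above. The last range included the most abundant members, with 1816 of the 2656 reads. It also held 7 of the 8 members known from a single read.

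The combined level of the members rested mostly on bta-miR-11987 and bta-miR-11980, the highest members by mean at both temperatures, and at 37 °C also on bta-miR-6518, which averaged 49.1 CPM at 42 °C and 455 CPM at 37 °C. For replicates A, B and C in turn, the members summed to 3497, 2141 and 2355 CPM at 42 °C and to 2296, 3202 and 7883 CPM at 37 °C. The groups overlapped, with replicate C at 37 °C far above the other 5 libraries. The mean was 2665 ± 729 CPM at 42 °C and 4460.3 ± 2998.8 CPM at 37 °C (SD, n = 3 each), a log2 ratio of -0.74 for 42 °C over 37 °C. This ratio shrank to -0.04 without replicate C at 37 °C and ran from -1.06 to -0.61 without any other library. With every library scaled to a sum of 1000000 it was -1.11, and -1.05 with bta-miR-1246 left out of that sum. Without bta-miR-11987, bta-miR-11980 and bta-miR-6518, which were picked after their values were seen, the sums were 1160.5, 1018 and 718 CPM at 42 °C and 629, 899 and 1293 CPM at 37 °C. Their means of 965 ± 226 and 940.3 ± 334 CPM (SD, n = 3 each) were close to each other, and again the groups overlapped. Fewer EVs carrying a miRNA and fewer copies per EV cannot be told apart in such bulk libraries, here and for each member below.

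**Figure D2:**
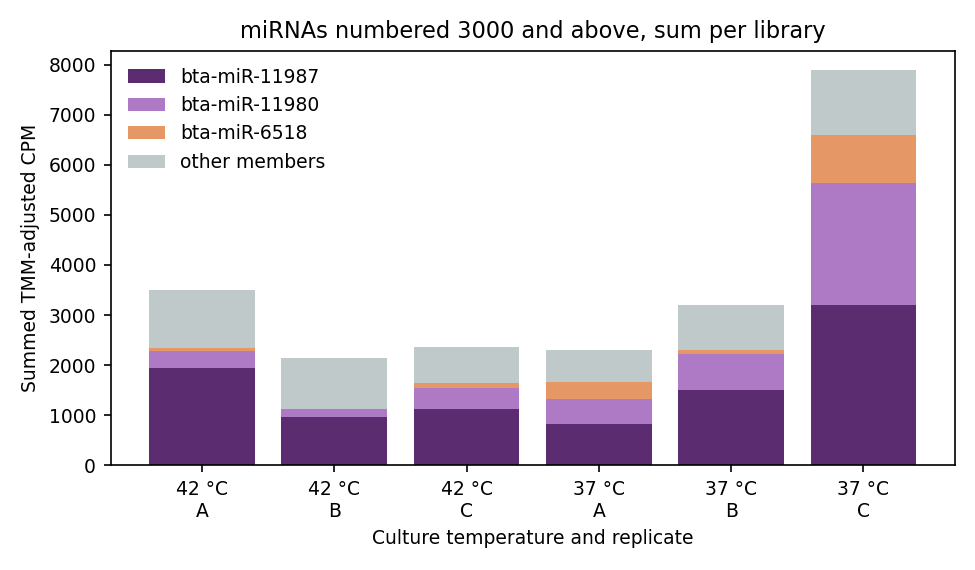
Summed TMM-adjusted CPM of the miRNAs numbered 3000 and above (vertical axis) in each EV library (horizontal axis), split into bta-miR-11987, bta-miR-11980, bta-miR-6518 and the other members. Replicate C at 37 °C reaches 7883 CPM, against 2141 to 3497 CPM in the other 5 libraries, and the segment of the other members differs less between libraries (629 to 1293 CPM).

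Since miR-1246 took 25.0% to 71.8% of the reads of a library, the members were also set against the reads left without it. They then made up 0.709%, 0.247% and 0.400% of the reads at 42 °C, with 95% Wilson intervals of 0.646 to 0.778%, 0.224 to 0.273% and 0.323 to 0.497%. At 37 °C they made up 0.569%, 0.726% and 1.51%, with intervals of 0.481 to 0.673%, 0.667 to 0.789% and 1.42 to 1.60%. Replicates B and C at 42 °C were the lowest of the 6, and replicate A at 42 °C lay within the range at 37 °C. The members were thus a small part of the EV miRNA in every library.

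The question of the study was whether heat stress changed the miRNA cargo of the EVs, and 22 of the members were abundant enough for a test, which required a group mean of 10 CPM or more at either temperature. Of these, 14 reached that mean at both temperatures, 5 only at 42 °C and 3 only at 37 °C. For all 251 miRNAs tested, these counts were 193, 23 and 35. Members that reached the mean at a single temperature passed only through the group where they were higher. None of the 22 passed limma at an adjusted p under 0.05 with a change of at least 2-fold, where 2.39% of the 251 miRNAs tested did. The study itself, with a negative binomial model at the same thresholds, listed bta-miR-11980 and bta-miR-6518 among the miRNAs lower at 42 °C. Whether these members count as changed thus depended on the test, and within limma also on the scaling and on a replicate block. An unadjusted p under 0.05 in limma was reached by 2 of the 22, bta-miR-11980 and bta-miR-6518, both lower at 42 °C, against 17.5% of all miRNAs tested. Every library at 42 °C was above every library at 37 °C for 1 of the 22, bta-miR-7857-3p (9.96% of all tested), and below every library at 37 °C for 1 of the 22, bta-miR-11980 (14.3% of all tested). On the recovered reads, edgeR called 1 of the 22, bta-miR-6518 (4.38% of all tested), and DESeq2 called 2, bta-miR-11980 and bta-miR-6518 (7.17% of all 251 entered). DESeq2 gave no adjusted p for several of the 22 with few reads, so it could not call them. Its count is therefore not read against a share of 22. Each of the other counts was near or below what its background share would give among 22 miRNAs. The highest library of a member was replicate A, B or C at 42 °C for 7, 3 and 2 of the 22 and replicate A, B or C at 37 °C for 1, 2 and 7, so that replicate A at 42 °C and replicate C at 37 °C held most of the highest values.

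The log2 fold changes of the 22 members, on the log2(CPM + 10) scale, ran from -2.70 to 1.36 for 42 °C over 37 °C. Of them, 11 were above 0 and 11 below, and their median of -0.05 stood beside -0.01 for all 251 miRNAs. The pseudocount of 10 CPM pulls the differences of members with few reads toward 0, so these fold changes understate large ratios. The standard errors were wide, with a median of 0.82 for the members against 0.72 for all miRNAs tested. Adjusted p-values in limma ran from 0.15 to 0.99 over the members. They set each difference against the spread between libraries, with variances drawn toward a trend over all miRNAs tested. Animals, culture, library preparation and counting error cannot be told apart in that spread. By range of numbers, the median was 0.04 for the 3 members tested below 6000, 0.63 for the 10 from 6000 and below 8000, 0.67 for the 3 from 8000 and below 11000 and -0.45 for the 6 from 11000 upward. These medians rest on few members each and are given as a description. Of the 10 members, 3 passed the filter only through 42 °C and 1 only through 37 °C. Of the 6 members, 1 passed only through 42 °C and 2 only through 37 °C. Such members have their higher mean at that temperature by the filter itself, so the filter in part sets these medians.

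**Figure D3:**
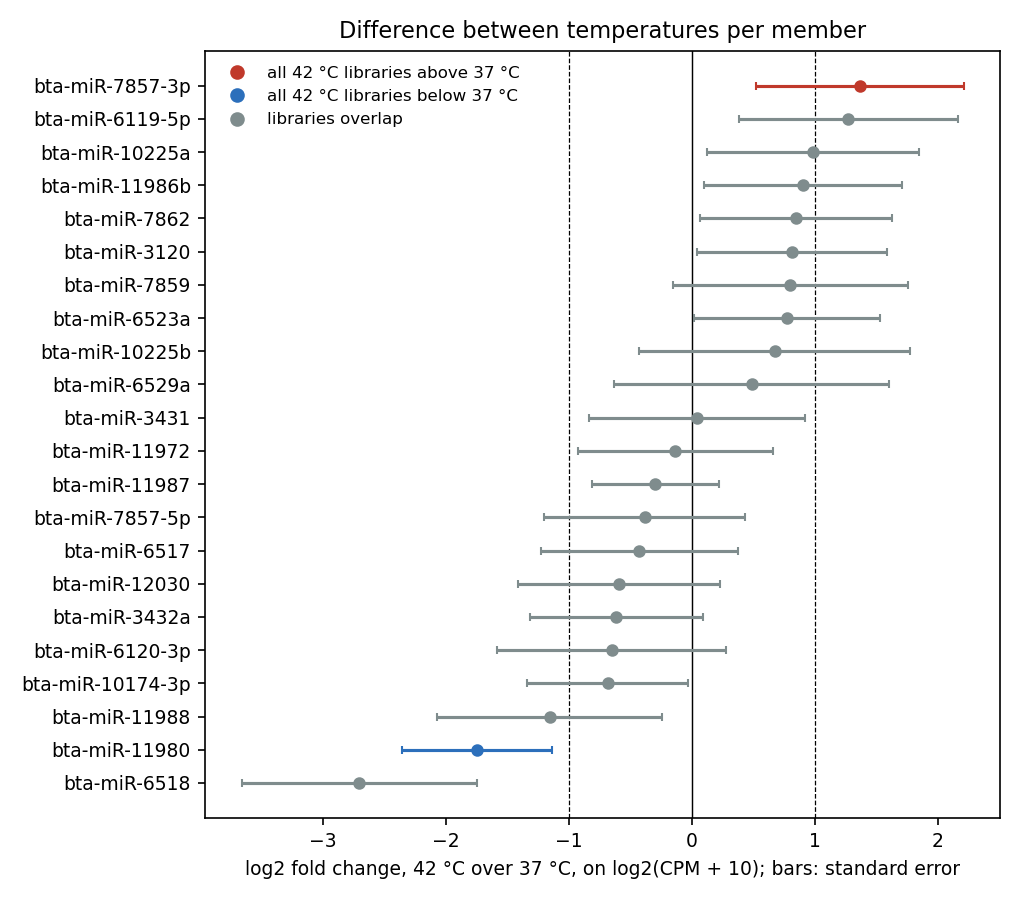
Log2 fold change, 42 °C over 37 °C, of the 22 members tested (horizontal axis, on the log2(CPM + 10) scale), with bars of 1 standard error from limma. Dashed lines mark a 2-fold change. bta-miR-6518 (-2.70) and bta-miR-11980 (-1.75) lie farthest to the left, bta-miR-7857-3p (1.36) farthest to the right, with 11 members on each side of 0.

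bta-miR-11987 was the most abundant member in all 6 libraries and alone took 1194 of the 2656 member reads. In the order of replicates A, B and C, which holds for all values below, it stood at 1947, 963 and 1120.0 CPM at 42 °C and at 816, 1498 and 3199 CPM at 37 °C. The groups overlapped, and the lowest and the highest value were both at 37 °C. Ranked by group mean among all miRNAs of the table, it was number 46 at 42 °C and number 35 at 37 °C. Its means of 1343 ± 529 and 1838 ± 1227 CPM (SD, n = 3 each) gave a log2 fold change of -0.30 (SE 0.52, limma adjusted p = 0.81). In RefSeq its gene, MIR11987, overlapped no other gene.

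bta-miR-11980 was the only tested member whose libraries at 42 °C all lay below those at 37 °C. It stood at 334, 155 and 431 CPM at 42 °C (42, 28 and 15 reads) and at 510.2, 734 and 2438 CPM at 37 °C (30, 125 and 330 reads). The gap between the groups was narrow beside the spread, since the highest library at 42 °C (431 CPM) and the lowest at 37 °C (510.2 CPM) were close and replicate C at 37 °C held 57.9% of all its reads. The means were 307 ± 140 and 1228 ± 1054 CPM (SD, n = 3 each). The log2 fold change was -1.75 (SE 0.61) with an unadjusted p of 0.0137 and an adjusted p of 0.15 in limma. DESeq2 on the reads called it (-2.06, adjusted p = 0.026) and edgeR did not (-2.05, adjusted p = 0.059). Without replicate C at 37 °C the limma value was -1.09 with an adjusted p of 0.47. With the replicate letter as a block, limma gave an adjusted p of 0.044. Over the 16 alternative settings its adjusted p ran from 0.016 to 0.47, and 4 of them called it.

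bta-miR-11980 was also set against bta-miR-11987 inside each library, which takes the scaling between libraries out of the comparison. For every 100 reads of bta-miR-11987 there were 17.1, 16.1 and 38.5 reads of bta-miR-11980 at 42 °C and 62.5, 49.0 and 76.2 at 37 °C. The ratios did not overlap between the groups, with means of 23.9 ± 12.6 and 62.6 ± 13.6 (SD, n = 3 each). The same ratio for bta-miR-6518 had means of 3.71 ± 3.63 at 42 °C and 25.4 ± 18.9 at 37 °C (SD, n = 3 each). Its groups overlapped, with 7.69 in replicate C at 42 °C and 4.71 in replicate B at 37 °C. For bta-miR-3432a the means were 17.1 ± 15.4 and 16.8 ± 3.93. These ratios were chosen after the values were seen and carry no test.

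bta-miR-6518 had the largest difference among the 22 members. It stood at 55.6, 5.53 and 86.2 CPM at 42 °C (7, 1 and 3 reads) and at 340.1, 70.5 and 953 CPM at 37 °C (20, 12 and 129 reads). Replicate B at 37 °C (70.5 CPM) lay below replicate C at 42 °C (86.2 CPM), so the groups overlapped, and 75.0% of all reads came from replicate C at 37 °C. The means were 49.1 ± 40.7 and 455 ± 452 CPM (SD, n = 3 each). The log2 fold change was -2.70 (SE 0.96) with an unadjusted p of 0.0145 and an adjusted p of 0.15 in limma. Both read-based tests called it, edgeR at -3.50 (adjusted p = 0.031) and DESeq2 at -3.43 (adjusted p = 0.012). In limma without replicate C at 37 °C it was -1.86 with an adjusted p of 0.48. With the replicate letter as a block, limma gave an adjusted p of 0.021. Over the 16 alternative settings its adjusted p ran from 0.0039 to 0.48, and 5 of them called it.

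The gene neighborhoods of these miRNAs differed. In the RefSeq annotation, MIR11980 overlapped BRAT1, a gene of the DNA damage response, and MIR6518 overlapped ADM, which encodes the vasoactive peptide adrenomedullin. The mRNA of these genes was not analysed here, and the annotation table gives no strand, so the overlap does not say that the miRNA and the gene share a transcript.

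Other members with at least 1 read in every library showed levels between those of a few reads and 414 CPM and no shared side. bta-miR-3432a stood at 231, 332 and 57.4 CPM at 42 °C and at 136, 311 and 414 CPM at 37 °C, with a log2 fold change of -0.61 (SE 0.70, limma adjusted p = 0.69). Its groups overlapped almost fully. It maps to a pair of RefSeq loci, in TP53BP1, a gene of DNA double-strand break repair, and in HIP1, a gene of clathrin-mediated endocytosis, and the sister entry bta-miR-3432b had 3 reads, so reads shared between copies cannot be assigned with certainty. bta-miR-10174-3p was the steadiest of these members, at 103, 71.9 and 57.4 CPM at 42 °C and at 136, 170.4 and 88.7 CPM at 37 °C. Replicate C at 37 °C fell inside the range at 42 °C, and the log2 fold change was -0.68 (SE 0.66, limma adjusted p = 0.64).

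bta-miR-6529a was read in 5 libraries, at 127, 44.3 and 201 CPM at 42 °C and at 0, 182 and 288 CPM at 37 °C. The value of 0 was in the shallowest library, replicate A at 37 °C, where 3 reads would be 51.0 CPM, which is above the 44.3 CPM of replicate B at 42 °C. The means of 124 ± 78.4 and 157 ± 146 CPM (SD, n = 3 each) overlapped, and the fitted log2 fold change of 0.49 (SE 1.12, limma adjusted p = 0.87) had the opposite sign to the means, and was -1.04 without that library. RefSeq places MIR6529A and MIR6529B together in GSK3B, a kinase of Wnt signaling and glycogen metabolism, but bta-miR-6529b was at 0 in all 6 libraries.

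**Figure D4:**
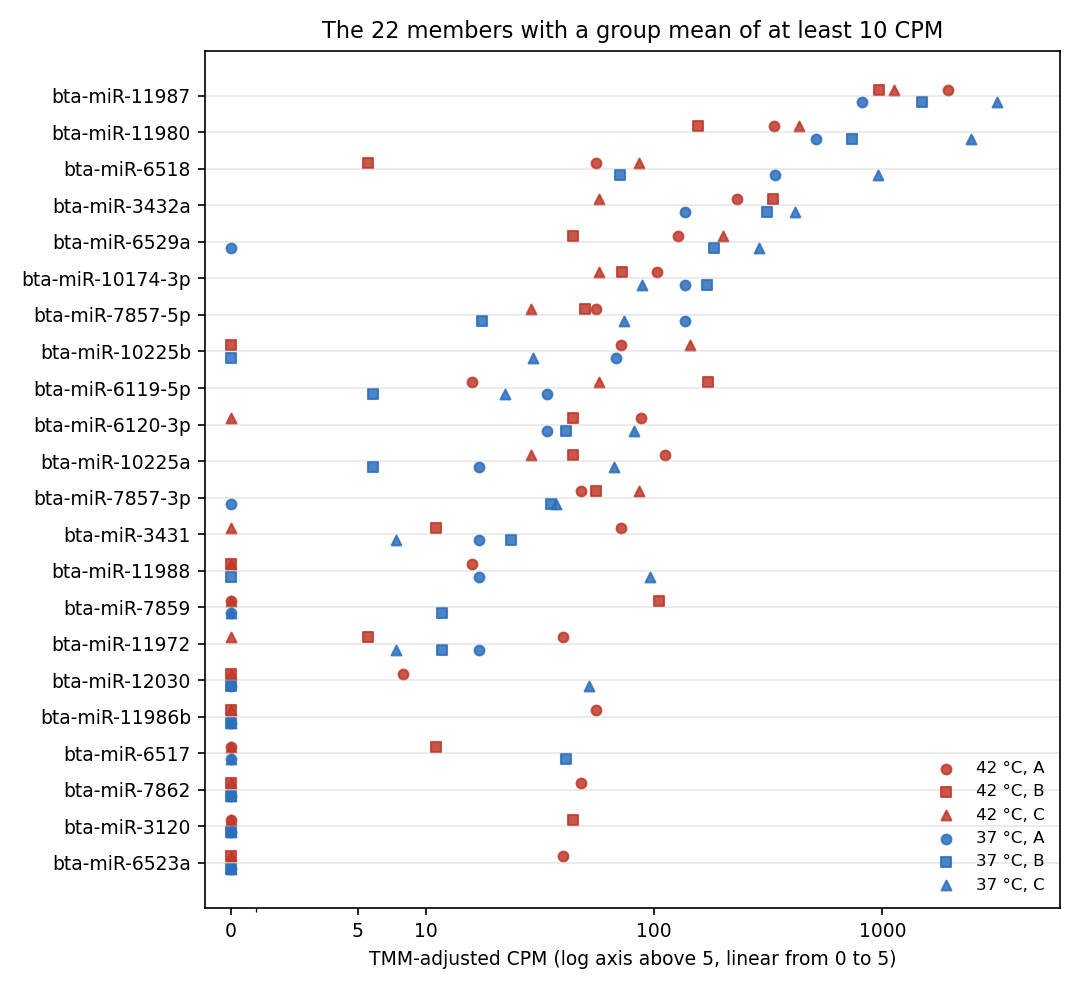
TMM-adjusted CPM of the 22 members with a group mean of at least 10 CPM (horizontal axis, logarithmic above 5 CPM and linear below), 1 point per EV library, red for 42 °C and blue for 37 °C, with marker shapes for replicates A, B and C. Points at 0 lie on top of each other. The libraries of both temperatures are intermixed for most members, from bta-miR-11987 (816 to 3199 CPM) down to members seen in a single library.

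Both arms of the miR-7857 hairpin were present, at similar levels. The 3p arm was the only tested member whose libraries at 42 °C all lay above those at 37 °C, with 47.7, 55.3 and 86.2 CPM at 42 °C and 0, 35.2 and 36.9 CPM at 37 °C. Only 3 to 10 reads per library at 42 °C and 0 to 6 at 37 °C stood behind these values, and the 0 of replicate A at 37 °C allows up to 51.0 CPM, which would overlap. Its log2 fold change was 1.36 (SE 0.84, limma adjusted p = 0.46), and it was called under none of the 16 alternatives. Without replicate A at 37 °C, the library at 0, the value was 0.63 (limma adjusted p = 0.81). The 5p arm stood at 55.6, 49.8 and 28.7 CPM at 42 °C and at 136, 17.6 and 73.9 CPM at 37 °C, with the groups overlapping and a log2 fold change of -0.39 (SE 0.82, limma adjusted p = 0.84).

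The share of the 5p arm among miR-7857 reads was 53.8%, 47.4% and 25.0% at 42 °C and 100%, 33.3% and 66.7% at 37 °C. Each of these shares rested on 4 to 19 reads, and the groups overlapped. Over all libraries 38 of 68 reads (55.9%, 95% Wilson interval 44.1 to 67.1%) were from the 5p arm. For the miR-10174 hairpin the 5p arm had 2 of 79 reads (2.53%, 95% Wilson interval 0.697 to 8.77%). The intervals of both hairpins did not overlap, but they pool reads over libraries and leave out the spread between libraries. By library the 5p share of miR-10174 was 0%, 0% and 33.3% at 42 °C and 0%, 0% and 7.69% at 37 °C. For miR-6119 only the 5p arm and for miR-6120 only the 3p arm had reads.

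The letter pair bta-miR-10225a and bta-miR-10225b was found at both temperatures. bta-miR-10225a stood at 111, 44.3 and 28.7 CPM at 42 °C and at 17.0, 5.87 and 66.5 CPM at 37 °C, with a log2 fold change of 0.99 (SE 0.86, limma adjusted p = 0.63). Replicate C at 37 °C lay above replicates B and C at 42 °C. bta-miR-10225b stood at 71.5, 0 and 144 CPM at 42 °C and at 68.0, 0 and 29.6 CPM at 37 °C, with a log2 fold change of 0.67 (SE 1.10, limma adjusted p = 0.80). Both groups had a library at 0, in each case replicate B. MIR10225B overlapped DMBT1, which encodes a secreted scavenger protein of mucosal epithelia.

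bta-miR-6119-5p owed its mean at 42 °C to replicate B. It stood at 15.9, 172 and 57.4 CPM at 42 °C (2, 31 and 2 reads) and at 34.0, 5.87 and 22.2 CPM at 37 °C (2, 1 and 3 reads). The groups overlapped, and 75.6% of its reads were in replicate B at 42 °C, the library with the highest red blood cell and liver miRNAs. The log2 fold change was 1.27 (SE 0.89, limma adjusted p = 0.52) with this library and 0.57 without it. Its RefSeq gene overlapped RPL39, which encodes a protein of the large ribosomal subunit.

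bta-miR-6120-3p, whose gene overlapped the casein kinase gene CSNK1G2, stood at 87.4, 44.3 and 0 CPM at 42 °C and at 34.0, 41.1 and 81.3 CPM at 37 °C. The highest and the lowest library were both at 42 °C, and the log2 fold change was -0.65 (SE 0.93, limma adjusted p = 0.75). bta-miR-3431, in GABRE, which encodes a GABA receptor subunit, stood at 71.5, 11.1 and 0 CPM at 42 °C and at 17.0, 23.5 and 7.39 CPM at 37 °C (log2 fold change 0.04, SE 0.88, limma adjusted p = 0.99). bta-miR-11972, in BIRC6, which encodes an inhibitor of apoptosis, stood at 39.7, 5.53 and 0 CPM at 42 °C and at 17.0, 11.7 and 7.39 CPM at 37 °C (log2 fold change -0.13, SE 0.79, limma adjusted p = 0.96). These 3 members shared a pattern of values, with replicate A the highest and replicate C at 0 among the libraries at 42 °C. Replicate C at 42 °C is also the library in which 1 read is worth the most.

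bta-miR-11988, whose gene overlapped no other, stood at 15.9, 0 and 0 CPM at 42 °C and at 17.0, 0 and 96.0 CPM at 37 °C. Of its 16 reads, 13 were in replicate C at 37 °C, the library that was also highest for bta-miR-11987, bta-miR-11980 and bta-miR-6518. The log2 fold change was -1.16 (SE 0.91, limma adjusted p = 0.59). bta-miR-12030 likewise had 7 of its 8 reads in that library and 1 in replicate A at 42 °C.

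The remaining members of the 22 were seen in 1 or 2 libraries. bta-miR-7859, in the prostaglandin reductase gene PTGR2, had 19 reads in replicate B at 42 °C (105 CPM) and 2 in replicate B at 37 °C (11.7 CPM). bta-miR-6517, in DNAAF2, a gene needed to assemble the dynein arms of cilia, had 2 reads in replicate B at 42 °C and 7 in replicate B at 37 °C. In limma the log2 fold change was 0.80 for bta-miR-7859 (SE 0.95, adjusted p = 0.71) and -0.43 for bta-miR-6517 (SE 0.80, adjusted p = 0.82). Both were seen only in the replicates B, which are the deepest library of each temperature.

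A further 4 members were read only at 42 °C, each in a single library, and so could not be separated from a difference between libraries. In replicate A, bta-miR-11986b, in the tight junction gene OCLN, had 7 reads, bta-miR-7862, in ANKRD6, had 6 and bta-miR-6523a, in the autophagy gene EPG5, had 5. bta-miR-3120 had 8 reads in replicate B. The other replicates at 42 °C were at 0 like all libraries at 37 °C, so the groups overlapped, and no fold is given. In limma their log2 fold changes were 0.77 to 0.90, with adjusted p-values of 0.64.

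bta-miR-3120 lies in DNM3, where RefSeq also has MIR214 at an overlapping place. The reads of bta-miR-214 at that locus were 5, 2 and 2 at 42 °C and 0, 4 and 2 at 37 °C. The 8 reads of bta-miR-3120 thus came from a library in which bta-miR-214 had 2.

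The 14 detected members below a mean of 10 CPM had 1 to 3 reads each, and 8 of them had a single read. They were seen at 42 °C only in 5 cases, at 37 °C only in 6 and at both temperatures in 3. The highest by mean were bta-miR-10174-5p, bta-miR-7863 and bta-miR-4286. The first 2 reached 28.7 CPM in replicate C at 42 °C, which is 1 read there. At this depth their presence rests on single reads and no difference could be measured.

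RefSeq, in assembly ARS-UCD2.0, held a miRNA gene for 197 of the 206 members. The submitters' processing notes name ARS-UCD1.2, so the annotation served for names and overlapping genes and no positions are given. A protein-coding gene overlapped the miRNA gene for 23 of 33 matched members with a read and for 131 of 164 matched members at 0. Among the matched members tested, 15 of 20 overlapped such a gene. Lying inside a protein-coding gene was thus common among members with and without reads.

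Lower-numbered annotations that share sequence with other small RNAs (miR-1246, miR-1260b, miR-2478, miR-2887, miR-2904, miR-1291 and miR-1839) were set beside the members. Of these 7, 5 had reads and were tested, none was called by limma, and their median log2 fold change was 0.58 (range -0.21 to 0.89), beside -0.05 for the members. The share of miR-1246 among all reads was 40.2%, 26.7% and 71.8% at 42 °C and 25.0%, 50.0% and 49.6% at 37 °C. Replicate C at 42 °C, with the highest share, had the fewest member reads (82) and the fewest members detected (13). Replicate A at 37 °C, with the lowest share, came next in both (135 reads and 14 members). Both libraries also had the fewest reads without miR-1246 (20482 and 23732), and the part of the miR-1246 share was not tested.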

How the data were processed

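Small RNA of EVs was sequenced in 3 libraries at 42 °C and 3 at 37 °C. The authors annotated trimmed reads with miRBase 22 in CLC Genomics Workbench and deposited 1 table of 1028 miRNAs, whose values are a signal that is 0 or above, called TMM-adjusted CPM. The submitters' processing notes also name bcl2fastq, Bowtie2 2.2.2, DESeq2 and ARS-UCD1.2, without roles. The authors' CPM were divided by the smallest value above 0 of each library, and 100% gave whole reads within 0.01.

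Groups were compared with limma 3.58.1 (R 4.3.3, intensity trend, no block) on log2(CPM + 10), for the 251 miRNAs that reached a group mean of 10 CPM, with Benjamini-Hochberg adjustment over all of them. Calls needed an adjusted p under 0.05 and a 2-fold change, the study's thresholds. The study's model needs counts, so edgeR 4.0.16 and DESeq2 1.42.0 on the recovered reads were alternatives, as were other pseudocounts, filters, scalings, a replicate block, a fit without trend and each library left out. The fits were also run on simulated counts with the same dispersion for all miRNAs. That setting is simpler than these libraries, and no result here rests on it. Wilson and exact intervals (95%) cover counting error only.

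The members and lists were chosen with earlier results of these data known. Every member with a group mean of at least 10 CPM is named, and below it only the 3 highest. The marker and small RNA lists are described in the text. A list of members with shared seeds was not made, since mature sequences and a genome were not used here. The mRNA sequencing was not analysed here.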

Additional observations from a re-analysis of the deposited data

How the results depend on the processing

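Of 334 results for the 22 members under the alternatives, 305 kept both their direction and their side of the threshold. A further 9 passed it in addition and 20 had the opposite sign, while 14 members kept their direction throughout. Direction could not change in many of these results. The other minimum means, the fit without trend and the replicate block leave the log2 fold change itself as it was. Members read only at 42 °C could not fall below 0, and they left the fit with their only library. The count of members called, 0 in limma, was 2 when every library was scaled to a sum of 1000000, and also when bta-miR-1246 was left out of that sum, 2 with the replicate block, 1 in edgeR and 2 in DESeq2, in each case bta-miR-6518 alone or with bta-miR-11980. Both scalings moved the median of all miRNAs tested to -0.57 and -0.43 (without bta-miR-1246), so that the calls were 4 higher and 16 lower, or 4 higher and 11 lower. All miRNAs called were 6, against 10 at a minimum mean of 50 CPM, 20 and 15 under the scalings, 10 without the trend, 15 with the block, 11 in edgeR, 18 in DESeq2 and 1 to 9 with a library left out (1 without replicate B and 3 without replicate C at 37 °C). The cause was not tested. With the replicate letter as a block, limma gave adjusted p-values of 0.044 for bta-miR-11980 and 0.021 for bta-miR-6518, and both were lower at 42 °C within each of the 3 letters. The same oviducts were used at both temperatures, but the letters are not stated to mark them. Libraries with the same letter had correlations of their deviations between -0.06 and 0.03, and none correlated best with its own letter, so the letters were not shown to pair libraries.

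In limma, the 8 members with opposite signs had log2 fold changes between -0.65 and 0.67. Size alone did not set them apart, since bta-miR-6517 (-0.43) kept its sign. With a library left out, the log2 fold change ran from -0.77 to 0.21 for bta-miR-11987, -1.09 to 0.082 for bta-miR-3432a, -1.04 to 1.41 for bta-miR-6529a, -1.05 to 0.15 for bta-miR-7857-5p, -1.34 to 0.30 for bta-miR-6120-3p, -0.15 to 1.83 for bta-miR-10225b, -0.79 to 0.73 for bta-miR-3431 and -0.80 to 0.36 for bta-miR-11972. bta-miR-6529a was at -0.51 in edgeR and -0.44 in DESeq2. bta-miR-3431 was at -0.69 with a pseudocount of 1 and at -0.16 and -0.39 under the scalings. bta-miR-11972 was at 0.023 with a pseudocount of 50, 0.56 in edgeR and 0.46 in DESeq2. The median over the members tested ran from -0.53 to 0.41 with a library left out. With 31640 to 213877 miRNA reads per library, members of a few reads could show only large differences.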
